A study of Bos taurus with 6 samples.

Results

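The genes described here encode the enzymes that build, transfer and trim N-glycans. A list of 43 of them was taken, and every probe set of the array annotated to a listed symbol was used, whatever its signal. The platform's annotation gave 58 probe sets for 36 of these genes, out of 24016 probe sets that are not controls and 9155 named genes. The other 7 (ALG9, ALG8, RPN1, MAN1B1, MAN1A2, MGAT2 and MGAT5) had no probe set named for them here and were not analysed. Of the 58 probe sets, 26 fell to lipid-linked assembly, 7 to oligosaccharyl transfer, 3 to trimming in the endoplasmic reticulum (ER) and 22 to processing in the Golgi.

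Bovine embryos made by in vitro fertilization (IVF) were compared on the Affymetrix Bovine Genome Array, which reads each transcript through probe sets of short oligonucleotides. Both groups had compacted into morulae on culture, and both were collected on day 8. Blastocysts had by then formed a visible inner cell mass and a fluid-filled blastocoele, whereas degenerative embryos had not completed that transition. Each group had 3 pools, lettered A, B and C, of 20 embryos each and 1 array per pool. Oocytes came from abattoir ovaries and were fertilized with frozen bull semen, and a pool mixed embryos of several cows and several bulls, so a value is the average of many genotypes and no single embryo was measured. All embryos were cultured in the same synthetic oviductal fluid, and neither group received a treatment. The spread behind each p-value is thus that among 3 such pools.

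An N-glycan is first built as a branched oligosaccharide on the lipid dolichol, beginning on the cytosolic face of the ER membrane and ending in the lumen. Oligosaccharyltransferase then moves the whole unit onto asparagines of proteins entering the ER, where glucosidases and mannosidases trim it while the protein folds. In the Golgi, further mannosidases and glycosyltransferases convert the trimmed glycan into complex forms. In embryos at this age, N-glycans are carried by adhesion molecules and receptors of the trophectoderm and inner cell mass and by the extracellular matrix.

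Levels are given as log2 expression values, so a difference of 1 is a change of a factor of 2, and every difference is degenerative embryos minus blastocysts. The scale had a floor of 2.12, at which a probe set gives no level. The degenerative A pool stood apart from its group, with Pearson correlations across probe sets of 0.938 and 0.936 with the B and C pools, against 0.987 between those pools. Among blastocysts the A pool correlated at 0.977 and 0.972 with the others, which reached 0.994. The difference between the 3′ and 5′ control probe sets of EIF4E, a value that grows as the 5′ end of transcripts is lost, was 6.60, 8.59 and 8.36 in blastocysts and 9.87, 9.80 and 9.13 in degenerative embryos, while that of GAPDH was 2.43 ± 0.54 and 2.50 ± 0.02 (SD, n = 3), that of EEF1A1 −0.37 ± 1.26 and 0.68 ± 0.15, and that of PPIA 2.46 ± 0.31 and 2.83 ± 0.36. The part of transcript ends in the group differences below was not tested.

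Lists of markers were averaged per pool to check the labels. Trophectoderm genes (5 of 11 listed had a probe set, none at the floor) averaged 11.6 to 12.4 in blastocysts and 10.2 to 11.4 in degenerative embryos, inner cell mass genes (3 of 6) 11.1 to 11.3 and 11.4 to 12.4, and hypoblast genes (4 of 6) 9.94 to 10.7 and 10.6 to 11.0. Oocyte genes (8 of 10, with BMP15 at the floor) averaged 2.98 to 3.18 in blastocysts and 3.49 to 4.16 in degenerative embryos. Only OOEP among them averaged 5 or more in a group (7.21 and 7.97), and GDF9 did not vary from 2.17. Cumulus genes (8 of 8, with AMH, INHA and FOXL2 at the floor) averaged 3.66 to 4.41 and 3.45 to 4.33. Within that list HAS2 averaged 10.31 in blastocysts and 10.76 in degenerative embryos, and CYP19A1 4.72 and 2.64. PTX3 read 2.25, 2.12 and 4.27 in blastocysts and 2.12, 8.36 and 7.22 in degenerative embryos. Sperm genes (6 of 7, with PRM2, TNP2 and ODF1 at the floor) averaged 2.73 to 3.23 and 2.74 to 3.01. The trophectoderm averages thus did not overlap between groups and were lower in degenerative embryos. Those of inner cell mass and oocyte genes did not overlap either and were higher. Of the trophectoderm genes, only TFAP2A had pools without overlap (−2.90, SE 0.63). KRT19 and IFNT2 differed by −1.18 (SE 0.66) and −1.01 (SE 0.86), and KRT8 and KRT18 by −0.04 and −0.06. The part of these markers in the values below was not tested. In such pools, fewer cells of a type and less RNA per cell cannot be told apart.

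Most of the N-glycan genes averaged above the floor of 2.12 in both groups. The level of 5 used below is a cut for description and does not by itself show expression. In 30 of the 36 genes at least 1 probe set averaged 5 or more in a group. The exceptions were ALG13, DOLPP1, TUSC3, MGAT1, B4GALT2 and ST6GAL1, all of whose probe sets averaged below 5 in both groups. Of the 58 probe sets, 9 lay at the floor on every array and could not be tested: the second ones of ALG3 and MAN2A2, the only one of MGAT1, and 6 of the 7 of ST6GAL1. The remaining 49, in 35 genes, were tested within the whole table of 18937 probe sets.

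No N-glycan gene differed past the threshold. Limma, with Benjamini-Hochberg adjustment over all probe sets, called 0 of the 49 at an adjusted p of at most 0.15, where it called 4 in the whole table (0.0211%), and the adjusted p of the N-glycan probe sets ran from 0.532 to 1. SAM, the permutation method of the study, also called 0 of the 49 at a false discovery rate of 15% (67 in the table, 0.354%). At 25% SAM called 4 as lower in degenerative embryos (4.29% of the table), in DPAGT1, ALG6, ALG5 and B4GALT3, and 0 as higher (0.359%). An unadjusted limma p under 0.05 was reached by 6 lower probe sets (5.27% of the table) and 2 higher ones (3.34%). The 6 became 1 without blastocyst C, and the 2 became 0 without blastocyst B or without degenerative A. With 3 pools a group, differences below are therefore descriptions of these pools.

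Over all pools, most genes were lower in degenerative embryos in each step but the Golgi. With the brightest probe set standing for each gene, 26 of the 35 genes were lower in degenerative embryos and 9 higher (74.3% lower), with a median difference of −0.21. Over the 8175 named genes of the table the median was 0.02 and 45.5% were lower. The N-glycan genes split into 21 lower and 13 higher without blastocyst A (median −0.29) and 21 and 14 without degenerative C (−0.28). Without blastocyst B the split was 27 and 8. Within letters A, B and C, 20, 18 and 27 of the 35 genes were lower. The 26 include DOLPP1, TUSC3 and ST6GAL1, and the 9 include ALG13 and B4GALT2, all averaging below 5 in both groups. Lipid-linked assembly held 14 lower and 3 higher genes with a median of −0.35, and without the degenerative A pool this median was −0.21, when that of all named genes was 0.01. Oligosaccharyl transfer had 5 lower and 1 higher gene but a median of −0.04, and the 2 ER glucosidases were both lower with a median of −0.26. Golgi processing was split, with 5 lower and 5 higher genes and a median of −0.01. Without degenerative A the medians of oligosaccharyl transfer and of the Golgi were −0.23 and −0.17, and that of the glucosidases ran from −0.41 without degenerative A to −0.04 without degenerative C. No test was made over these lists.

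**Figure D1:**
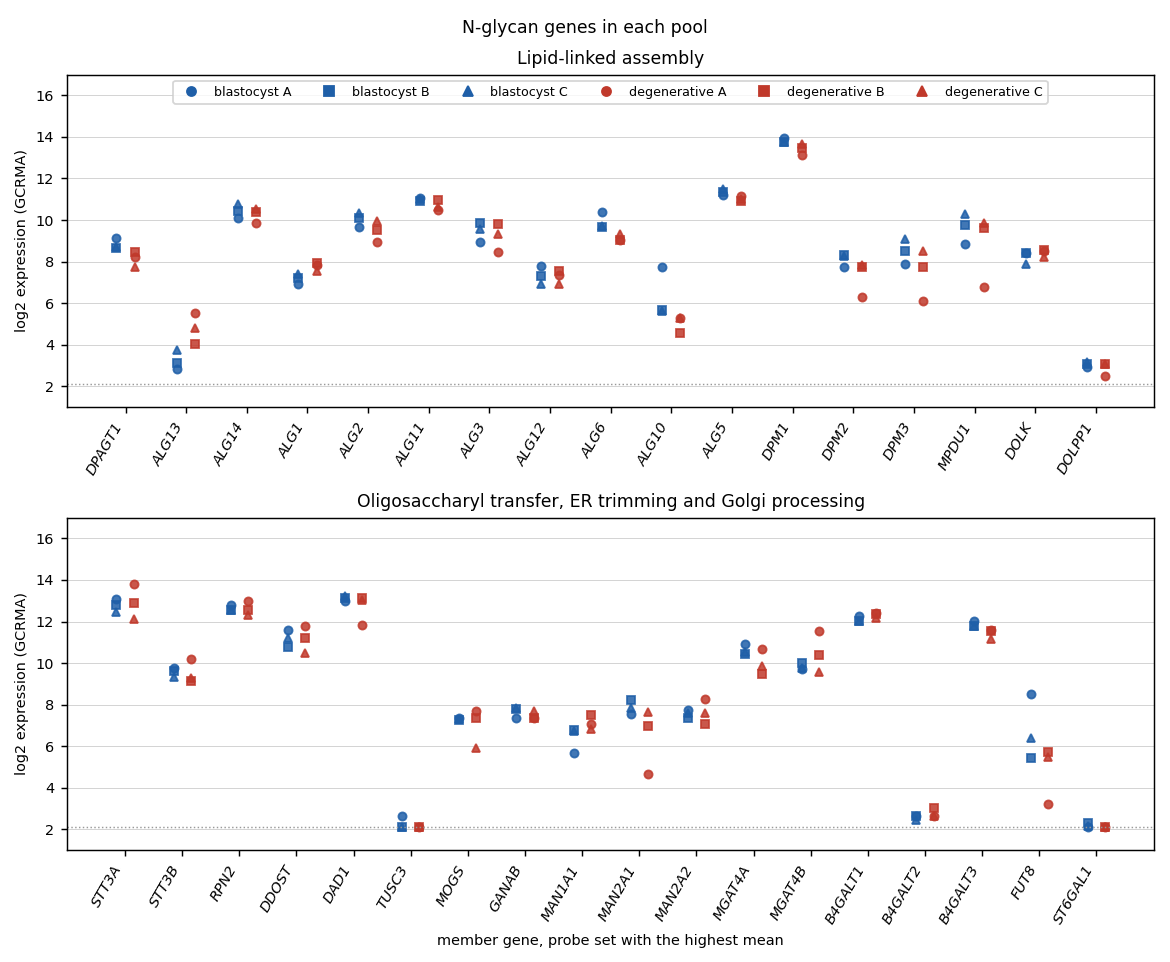
Log2 expression (vertical axis, GCRMA) of the 35 tested N-glycan genes in each pool, blastocysts in blue and degenerative embryos in red, with circles, squares and triangles for the letters A, B and C and the floor of 2.12 as a dotted line. Each gene is shown by its brightest probe set. Blue and red points lie close together for most genes, while degenerative A (red circles) lies far below the others for MPDU1, DPM3, MAN2A1 and FUT8.

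**Figure D2:**
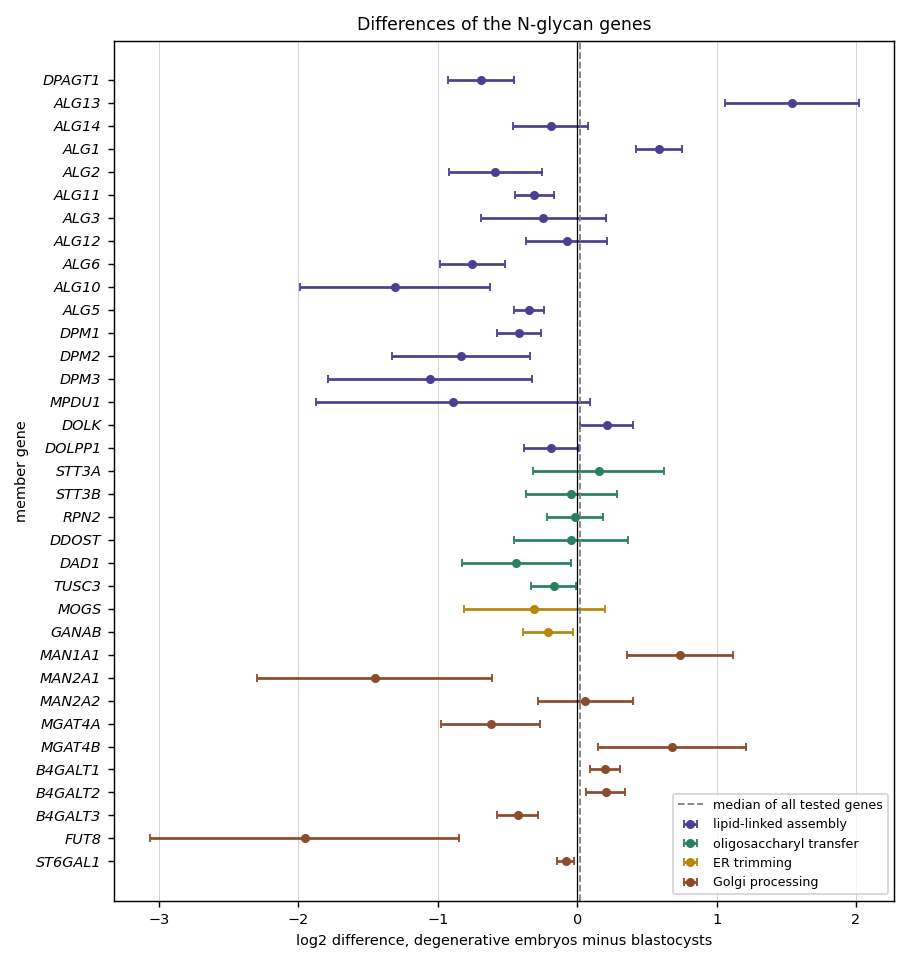
Difference in log2 expression, degenerative embryos minus blastocysts, of the 35 tested genes, by step in the pathway, with bars of 1 standard error of the limma fit (n = 3 pools a group). The dashed line is the median of 8175 named genes (0.02). In lipid-linked assembly 14 of 17 genes lie left of 0, and in the Golgi 5 of 10.

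The cytosolic side of assembly opens with DPAGT1, which joins the first GlcNAc phosphate to dolichol phosphate and is the target of tunicamycin. DPAGT1 read 9.12, 8.63 and 8.73 in blastocyst pools A, B and C, and 8.22, 8.44 and 7.74 in degenerative pools. Every degenerative pool was below every blastocyst pool, by 0.69 on average (SE 0.24, 1.62-fold, adjusted p = 0.563). Its second probe set behaved alike, with 7.66, 6.08 and 6.89 against 6.01, 5.97 and 5.22, a difference of −1.14 (SE 0.49, adjusted p = 0.605). Leaving out any 1 pool kept the brighter probe set lower by 0.50 to 0.85.

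ALG13 and ALG14, which work as a complex, pointed in opposite directions. ALG13, the catalytic member, which adds the next GlcNAc, was dim: 2.81, 3.14 and 3.77 in blastocysts and 5.53, 4.02 and 4.79 in degenerative embryos. Its pools did not overlap, and the difference of 1.54 (SE 0.48, adjusted p = 0.537) was the largest upward one among the N-glycan genes. Since the blastocyst values approach the floor, this difference understates the ratio if the true signal was lower. ALG14, which anchors ALG13 in the membrane, was at 10.08, 10.44 and 10.79 in blastocysts against 9.85, 10.37 and 10.51, overlapping, with a difference of −0.19 (SE 0.27).

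ALG1, which adds the first mannose, had the smallest p among the N-glycan genes. It read 6.93, 7.23 and 7.42 in blastocysts and 7.85, 7.91 and 7.57 in degenerative embryos, so the groups did not overlap and the difference was 0.59 (SE 0.17, 1.50-fold, adjusted p = 0.532). The second probe set of ALG1 did not share this pattern, at 5.39, 5.49 and 5.39 against 5.22, 5.39 and 5.39, a difference of −0.09 (SE 0.07). This second probe set gave an identical value of 5.39 on most arrays, in both groups. It thus hardly varied and says little about a group difference. Whether it measured the transcript was not tested.

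ALG2 and ALG11, which complete the mannoses added in the cytosol, were lower. For ALG2 the blastocyst pools were at 9.69, 10.11 and 10.36 and the degenerative pools at 8.93, 9.50 and 9.97. These ranges overlapped, yet within each letter the degenerative pool was the lower by 0.76, 0.61 and 0.39, and the mean difference was −0.59 (SE 0.33, adjusted p = 0.673). ALG11 differed between its probe sets in size: the brighter gave 11.04, 10.94 and 11.01 against 10.49, 10.96 and 10.62 (−0.31, SE 0.14), and the other gave 9.71, 8.02 and 8.32 against 6.81, 7.30 and 7.54 (−1.47, SE 0.52, adjusted p = 0.568). The latter was the lowest difference of an assembly probe set, and it was −0.96 without the blastocyst A pool.

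On the lumenal side, the 2 measured mannosyltransferases had a median of −0.16 and the 2 measured glucosyltransferases one of −1.03. None of these genes was called, and their contrast was not tested. ALG3, which adds the first lumenal mannose, differed by −0.24 (SE 0.45) and by 0.13 without degenerative A. ALG12 differed by −0.08 (SE 0.29), with its dim second probe set at −0.003. The ranges of both genes overlapped.

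ALG6 adds the first of the glucoses that mark the oligosaccharide as complete. Its brightest probe set read 10.36, 9.64 and 9.69 in blastocysts and 9.05, 9.05 and 9.34 in degenerative embryos, a separation of the groups with a difference of −0.75 (SE 0.24, 1.69-fold, adjusted p = 0.537). The next probe set of ALG6 gave 9.61, 8.64 and 8.90 against 8.51, 8.04 and 8.52, again without overlap (−0.69, SE 0.31, adjusted p = 0.616). The remaining one was dim and variable, from 2.72 to 5.34 in blastocysts and from 2.48 to 5.62 in degenerative embryos, and gave −0.09 (SE 1.16).

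ALG10, which places the terminal glucose recognized by oligosaccharyltransferase, had 7.74, 5.66 and 5.65 in blastocysts and 5.28, 4.57 and 5.27 in degenerative embryos. Although the groups did not overlap, blastocyst A lay far above the other blastocyst pools. The difference of −1.31 (SE 0.68, adjusted p = 0.645) was −0.61 without that pool. The median of ALG6 and ALG10 was −1.03, and −0.57 without blastocyst A.

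Lumenal mannoses and glucoses come from dolichol-linked donors, and the 5 genes for making and using these were each lower in degenerative embryos within all 3 letters. Their median was −0.83, and −0.34 without degenerative A. ALG5, which makes dolichol phosphate glucose, gave 11.22, 11.37 and 11.49 in blastocysts and 11.16, 10.89 and 10.99 in degenerative embryos. The groups did not overlap although the difference was only −0.35 (SE 0.11, 1.27-fold, adjusted p = 0.537). DPM1, the catalytic subunit of dolichol phosphate mannose synthase, was at 13.92, 13.75 and 13.77 against 13.11, 13.44 and 13.64, with no overlap and a difference of −0.42 (SE 0.16, adjusted p = 0.580) that was −0.27 without degenerative A.

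The partners of DPM1 were more variable. DPM2, which regulates the synthase, read 7.74, 8.30 and 8.29 in blastocysts and 6.28, 7.73 and 7.82 in degenerative embryos (−0.83, SE 0.49). DPM3, which tethers DPM1 to the membrane, read 7.89, 8.52 and 9.11 against 6.10, 7.74 and 8.51 (−1.06, SE 0.73). MPDU1, needed for use of both donors in the lumen, read 8.83, 9.78 and 10.31 against 6.80, 9.60 and 9.84 (−0.89, SE 0.99). In each of these the degenerative A pool was the lowest of all pools. Without it the differences were −0.34, −0.38 and 0.08, so that of MPDU1 rested on this pool.

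Dolichol phosphate itself showed no common direction. DOLK, the kinase that makes it, was 8.40, 8.39 and 7.87 in blastocysts and 8.51, 8.56 and 8.24 in degenerative embryos, a difference of 0.21 (SE 0.19) that was positive within each letter. Its second probe set was at or near the floor on all arrays but blastocyst A. DOLPP1, the phosphatase that recycles the carrier, stayed between 2.48 and 3.18.

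Over the 25 assembly probe sets, 14 were lower within each letter and 3 higher within each letter. Over all 49 N-glycan probe sets these counts were 18 and 6, or 36.7% and 12.2%, where 19% and 15% of the whole table did so. Groups without overlap were seen in 9 lower probe sets (8.93% of the table were lower in this way), 8 of them in assembly, and in 3 higher ones (6.48% of the table), of ALG13, ALG1 and MAN1A1. With fewer pools to overlap, these counts were 18 lower without blastocyst A and 9 higher without degenerative C. The shares of the table given here are for all 6 pools and cannot be set beside counts with a pool left out. The letters are labels only, and no source used here says that pools of a letter shared a day.

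**Figure D3:**
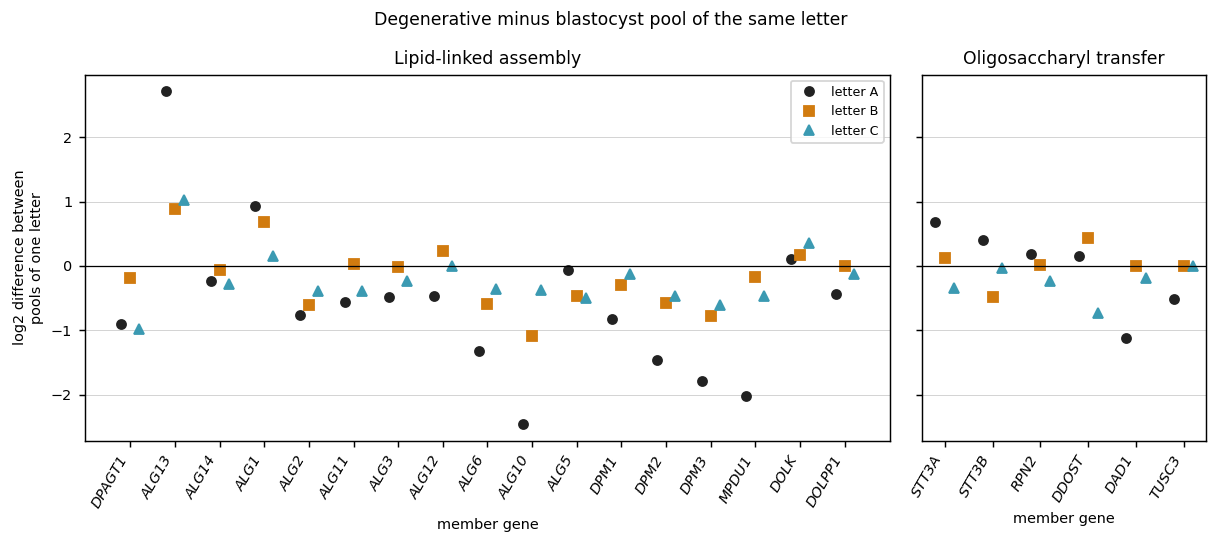
Difference in log2 expression between the degenerative and the blastocyst pool of the same letter (vertical axis) for each gene of lipid-linked assembly and of oligosaccharyl transfer. Points of all 3 letters lie below 0 for DPAGT1, ALG14, ALG2, ALG3, ALG6, ALG10, ALG5, DPM1, DPM2, DPM3 and MPDU1. Letter A lies furthest down in most of them, whereas the points of oligosaccharyl transfer lie on both sides.

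Oligosaccharyltransferase subunits overlapped between the groups. STT3A, the catalytic subunit that works on nascent chains at the translocon, read 13.10, 12.77 and 12.48 in blastocysts and 13.79, 12.89 and 12.14 in degenerative embryos. The degenerative pools were both the highest and the lowest, and the difference was 0.16 (SE 0.47, adjusted p = 0.942). It was −0.27 without degenerative A. STT3B, the catalytic subunit for sites skipped during translation, read 9.78, 9.61 and 9.34 against 10.17, 9.12 and 9.30 (−0.04, SE 0.32).

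The shared subunits overlapped too. RPN2, ribophorin II, was at 12.79, 12.56 and 12.54 in blastocysts and 12.97, 12.57 and 12.30 in degenerative embryos (−0.02, SE 0.20). DDOST, also called OST48, was at 11.61, 10.77 and 11.21 against 11.76, 11.21 and 10.48 (−0.04, SE 0.41). DAD1, a small subunit first known from a cell line that dies by apoptosis when it is lost, was at 12.97, 13.11 and 13.24 against 11.84, 13.11 and 13.05.

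The DAD1 difference of −0.44 (SE 0.39) came from degenerative A, and without this pool it was −0.02. TUSC3, the thioredoxin-like subunit of the STT3B complex, was at the floor in 5 pools and at 2.63 in blastocyst A. None of the 7 probe sets of this step was lower or higher within all 3 letters, and none separated the groups.

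The ER glucosidases that remove the glucoses after transfer were close in both groups. MOGS, glucosidase I, read 7.34, 7.26 and 7.30 in blastocysts and 7.71, 7.36 and 5.92 in degenerative embryos. Degenerative C was the only pool below 7 and gave the negative sign: the difference was −0.31 (SE 0.51, adjusted p = 0.840) with it and 0.23 without it. GANAB, the catalytic subunit of glucosidase II, read 7.35, 7.81 and 7.85 against 7.35, 7.36 and 7.68, with overlapping groups and a difference of −0.21 (SE 0.18, adjusted p = 0.737). The other GANAB probe set was dimmer and gave −0.18 (SE 0.27).

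In the Golgi, the mannosidases pointed in different directions. MAN1A1, Golgi mannosidase IA, which trims further mannoses, read 5.68, 6.77 and 6.75 in blastocysts and 7.09, 7.50 and 6.82 in degenerative embryos. Its groups did not overlap, with degenerative pools higher by 0.74 on average (SE 0.38, adjusted p = 0.644), though degenerative C exceeded the highest blastocyst pool only narrowly. The mean difference was 0.38 without blastocyst A. MAN2A1, Golgi mannosidase II, which acts once MGAT1 has started the first antenna, read 7.57, 8.23 and 7.84 against 4.68, 6.98 and 7.63. The difference of −1.45 (SE 0.84, adjusted p = 0.677) was −0.58 without degenerative A, and the related MAN2A2 differed by 0.06 (SE 0.34). The only probe set of MGAT1 lay at the floor, so no level of this enzyme was measured.

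The branching enzymes MGAT4A and MGAT4B, which add the same kind of GlcNAc branch, pointed in opposite directions. MGAT4A read 10.90, 10.46 and 10.52 in blastocysts and 10.68, 9.49 and 9.84 in degenerative embryos (−0.62, SE 0.35, adjusted p = 0.673). Its dimmer probe set read 5.36, 6.10 and 6.08 against 2.72, 5.38 and 4.73 (−1.57, SE 0.77, adjusted p = 0.631). Both were lower within each letter. The mean difference was −0.36 without degenerative B for the brighter and −0.79 without degenerative A for the dimmer. MGAT4B read 9.70, 10.02 and 9.75 against 11.53, 10.38 and 9.59, a difference of 0.68 (SE 0.53, adjusted p = 0.737) that was 0.16 without degenerative A and overlapped between groups.

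Antennae are finished by galactosyltransferases and sialyltransferases. B4GALT3 read 12.01, 11.79 and 11.79 in blastocysts and 11.61, 11.53 and 11.17 in degenerative embryos. It was the only Golgi gene with all degenerative pools below all blastocyst pools, by 0.43 on average (SE 0.15, 1.34-fold, adjusted p = 0.563). B4GALT1, the galactosyltransferase that also makes lactose with alpha-lactalbumin, read 12.26, 12.02 and 12.02 against 12.39, 12.35 and 12.15 (0.20, SE 0.11, adjusted p = 0.651), higher within each letter but overlapping. The difference of its other probe set was −0.11 (SE 0.40). B4GALT2 stayed between 2.44 and 3.04, and the tested probe set of ST6GAL1, which caps antennae with alpha2,6-linked sialic acid, did not exceed 2.31.

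FUT8, which adds the core fucose, varied most. It read 8.49, 5.43 and 6.38 in blastocysts and 3.23, 5.71 and 5.49 in degenerative embryos. The difference of −1.96 was the lowest of the N-glycan genes but had an SE of 1.11 (adjusted p = 0.673), since the A pools held both the highest and the lowest value. Within letter B it was positive (0.28), and it was −1.17 without degenerative A and −1.09 without blastocyst A.

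Of the 35 tested genes, 13 had more than 1 tested probe set. In 9 of these all probe sets pointed the same way (ALG11, ALG12, ALG14, ALG6, DPAGT1, GANAB, MAN1A1, MGAT4A and STT3B), and in 4 they did not (ALG1, B4GALT1, DOLK and MAN2A1). For DOLK and MAN2A1 the discordant probe set was at or near the floor on most arrays. That of ALG1 gave an identical value on most arrays.

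**Figure D4:**
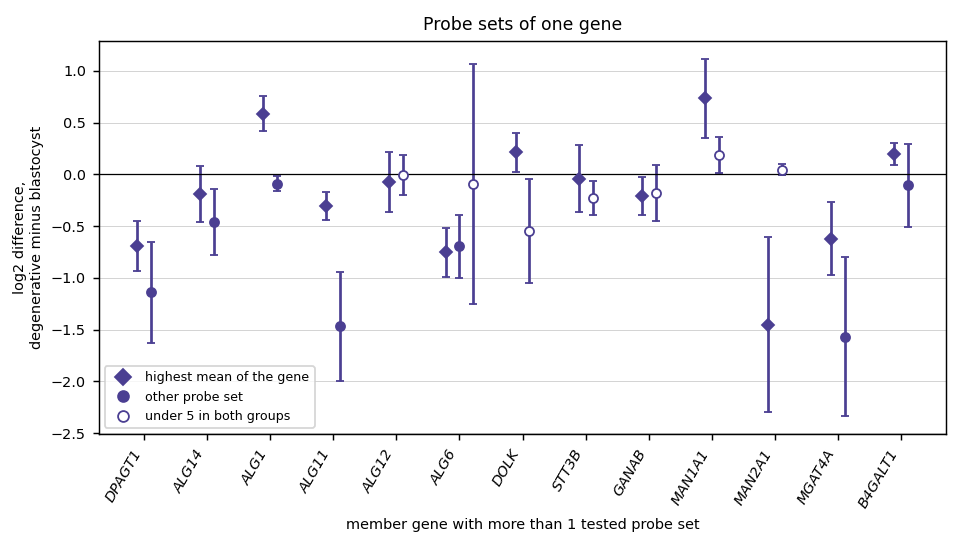
Difference in log2 expression (vertical axis, degenerative minus blastocyst, bars of 1 standard error, n = 3 pools a group) for each tested probe set of the 13 genes that have more than 1. Diamonds mark the brightest probe set of a gene and open symbols those under 5 in both groups. Both probe sets of DPAGT1 and the brighter 2 of ALG6 lie below 0, while those of ALG1 and B4GALT1 lie on both sides.

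The A pools often lay at an end of their group. In 9 genes (ALG14, ALG2, ALG3, DPM2, DPM3, MPDU1, DOLPP1, DAD1 and MAN2A1) the A pool was the lowest of its group among both blastocysts and degenerative embryos (25.7% of the N-glycan genes and 22.9% of all named genes). In 10 others (ALG10, STT3A, STT3B, RPN2, DDOST, MOGS, MAN2A2, MGAT4A, B4GALT1 and B4GALT3) it was the highest in both (28.6% and 18.7%). The median SD of the N-glycan genes was 0.28 among blastocyst pools and 0.36 among degenerative pools, against 0.23 and 0.41 over all named genes. The degenerative SD was the larger in 22 of the 35 genes.

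To set these genes in their surroundings, 49 other genes of the pathway were listed in 4 groups, and 38 of them had a tested probe set. Limma called 0 of their 46 probe sets at an adjusted p of at most 0.15. With the brightest probe set of each, 27 were lower in degenerative embryos and 11 higher, with a median of −0.20. An unadjusted limma p under 0.05 was reached by 8 probe sets of 7 genes, each of them lower (5.27% of the table were lower in this way). SAM at 25% called 6 of the 46 as lower (4.29% of the table). All 6 were among these 8, and both counts rest on the same values.

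Among 17 genes that supply dolichol and sugar nucleotides the median was −0.16, and −0.07 without blastocyst A. UAP1 makes UDP-GlcNAc, the donor used by DPAGT1. Its brightest probe set read 11.84, 11.10 and 11.01 in blastocysts and 10.36, 9.95 and 10.27 in degenerative embryos. The difference was −1.12 (SE 0.27, 2.18-fold, adjusted p = 0.483). Its other probe sets were dimmer and overlapped between groups, with differences of −1.61 (SE 1.12) and −0.27 (SE 0.24). The former was −0.44 without blastocyst A. SLC35A1, which carries CMP-sialic acid into the Golgi, read 11.10, 10.87 and 10.86 against 10.50, 9.96 and 10.35 (−0.67, SE 0.17, adjusted p = 0.491). MPI, which makes mannose 6-phosphate, differed by −0.58 (SE 0.22, adjusted p = 0.578), without overlap. PMM2, the next enzyme on the way to GDP-mannose, was the gene of this list whose pools did not overlap upward, with a difference of 0.57 (SE 0.24, adjusted p = 0.602).

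The 5 other subunits of oligosaccharyltransferase had a median of −0.45 and were each lower, but without degenerative A the median was 0.16, with 2 lower and 3 higher. MAGT1, which takes the place of TUSC3 in the STT3B complex and also takes part in magnesium transport, had 3 probe sets. The brightest read 11.70, 11.31 and 11.45 against 11.87, 11.12 and 11.07 (−0.14, SE 0.26), and the other two gave −0.89 (SE 0.24, adjusted p = 0.512) and −1.07 (SE 0.41, adjusted p = 0.580) with no overlap. OSTC, a small subunit of the STT3A complex, gave 13.48, 13.40 and 13.69 against 12.73, 13.22 and 13.28 (−0.45, SE 0.18). The differences of OST4, TMEM258 and KRTCAP2, further small subunits, had standard errors from 0.75 to 0.85, and their A pools were the lowest in both groups.

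Genes of the glycan folding cycle and disposal had a median of −0.71 over 9 genes, which was −0.38 without blastocyst A. MCFD2, the partner of the lectin LMAN1 in export from the ER, read 13.49, 12.21 and 12.55 in blastocysts and 11.41, 11.42 and 11.53 in degenerative embryos (−1.29, SE 0.36, adjusted p = 0.514). EDEM2 and EDEM3, which trim mannoses on misfolded proteins, differed by −0.71 (SE 0.20, adjusted p = 0.532) and −0.85 (SE 0.26, adjusted p = 0.532), both without overlap. CANX, the membrane lectin calnexin, averaged 13.24 in both groups, and PRKCSH, the regulatory subunit of glucosidase II, differed by 0.57 (SE 0.28). The 7 other Golgi enzymes had a median of −0.15, which was −0.00089 without degenerative A, and none reached an unadjusted p under 0.05.

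**Figure D5:**
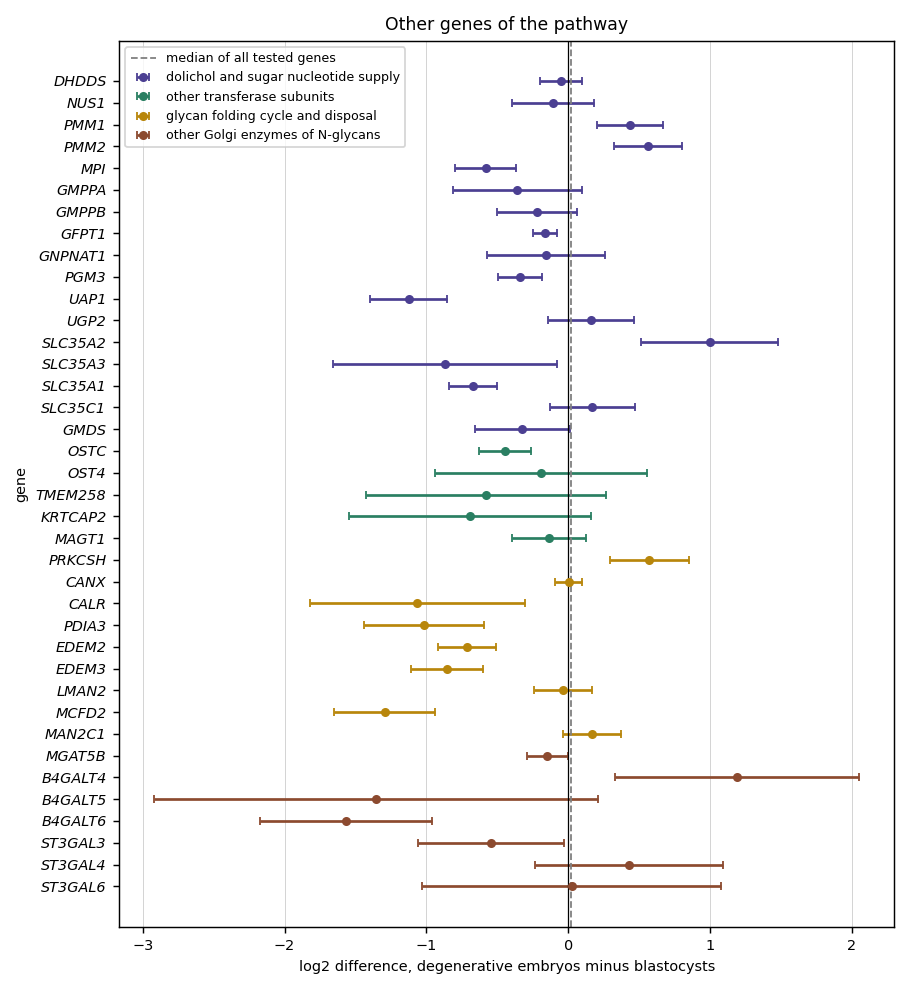
Difference in log2 expression, degenerative embryos minus blastocysts (horizontal axis, bars of 1 standard error, n = 3 pools a group), of the 38 tested other genes of the pathway by list. The dashed line is the median of all named genes (0.02). UAP1, EDEM2, EDEM3 and MCFD2 lie left of 0 with short bars, and B4GALT5 and ST3GAL6 have long ones.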

How the data were processed

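RNA from pools of embryos was amplified linearly and hybridized to 6 arrays. The labels name 1 round of amplification before labelling and the methods a further round that labelled the RNA. The authors deposited 1 log2 value for each probe set and array, which they made with GCRMA 2.14.1 (background from probe sequence, quantile normalization, median polish). The number of arrays limits the precision.

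From these, 20 control probe sets and 5079 that did not vary were left out, and the rest went into lmFit and eBayes (limma 3.58.1, R 4.3.3). SAM was written again after siggenes, over all 20 relabelings, and checked with limma on simulated data. Genes were named from the platform's annotation updated through a RefSeq gene table. A gene was represented by its probe set with the highest mean.

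Genes were described pool by pool if they had one of the 4 smallest p-values of their step, one of the 4 largest differences in either direction, or an unadjusted p under 0.05 without overlap. Of the other pathway genes, those with an unadjusted p under 0.05 were named. Further genes were named after their values were seen. The members, lists and tests were chosen with earlier results of these data known.

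Pools of a letter deviated together from their group means (r across probe sets 0.373, 0.180 and 0.275 for A, B and C), so the letters were also used as a block.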

Additional observations from a re-analysis of the deposited data

How the results depend on the processing

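Alternatives were a median centring of arrays, a filter on dim probe sets (mean of at least 5 in a group), no filter, an intensity trend, the letters as a replicate block, each pool left out, SAM and other thresholds; SAM at 25%, the counts at an unadjusted p and of groups without overlap, and leaving out both A pools were chosen after seeing the data. Leaving out both A pools was run for the medians of the steps only. No N-glycan probe set was called under the others except 4 by SAM at 25%. Over the whole table, 4 calls became 1 after centring, 1 with the dim filter, 0 with the trend, 0 with the replicate block, 30 at an adjusted p of at most 0.25, 67 by SAM at 15%, 881 by SAM at 25% and 1 to 42 with a pool left out (42 without degenerative A, 14 without degenerative C). The 6 lower probe sets at an unadjusted p under 0.05 became 3 after centring, 3 with the replicate block and 1 to 4 with a pool left out, and the 2 higher ones 0 with the dim filter, 0 with the block and 0 to 2. The 3 lower probe sets under the block were those of B4GALT3 and ALG2 and the second of ALG6 (unadjusted limma p 0.029, 0.013 and 0.039). Only that of B4GALT3 was among the 6. At an adjusted p of at most 0.15 the block called 0 N-glycan probe sets. With a pool left out, groups without overlap numbered 9 to 18 for lower probe sets (18 without blastocyst A). For higher ones they numbered 3 to 9 (9 without degenerative C). The shares of the whole table given for 6 pools do not apply to these ranges. With the dim filter the counts were 9 and 2. The Golgi median was −0.19 with the dim filter, −0.15 without both A pools and −0.17 (without degenerative A) to 0.00996 (without blastocyst A) with a pool left out, and 0.02 after centring. That of assembly ran from −0.44 to −0.21. That of oligosaccharyl transfer ran from −0.23 to 0.11, and that of the glucosidases from −0.41 to −0.04, with −0.48 without both A pools.

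Of 334 alternative values of the 31 probe sets of named genes, 322 kept their direction. Another 2 were 0 (TUSC3 and the dim probe set of MAN2A1, each with a pool left out). The other 10 reversed, in 5 probe sets and only with a pool left out. The dim filter, no filter, the trend and the block cannot change a difference. Their values are among the 322 but could not have reversed, and centring shifts all differences alike. With a pool left out the dim probe set of ALG6 ran from −1.06 to 0.68, STT3A from −0.27 to 0.55, the brighter probe set of STT3B from −0.36 to 0.16, MOGS from −0.67 to 0.23 and the dimmer probe set of B4GALT1 from −0.39 to 0.19. The cause was not tested. For dim probe sets the floor limits what can be read.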
